A study of Mus musculus with 4 samples.

Results

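Cdt1, Mcm2, Mcm7, Ccne1, Rrm1 and Bub1, 6 genes of DNA replication and the cell cycle, were followed in the distal and the proximal matrix of the mouse nail. They were taken as every probe set (a group of short oligonucleotides that reads a transcript) that carries one of these symbols in the authors' deposited list of probe sets differing between the regions. This gave 7 probe sets, 2 of them for Mcm7, out of 1435 listed probe sets for genes and 45037 measured on each array. The list holds probe sets whose fold between the regions on these same arrays passed the authors' cut-off of 1.99. The contrast between the regions therefore chose the 6 genes, and their differences are given below as a description, with no test of their own. The folds in the authors' deposited table run from 2.20 to 13.9 for the 7 probe sets, and the lowest fold on the whole list was 1.99. Probe sets below the cut-off carry no gene name here, so members just outside it, and any further probe sets of the 6 genes, are not described. The direction given for each gene rests on its listed probe sets alone.

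The nail plate grows from the matrix, an epithelium at the nail root with dividing cells. The distal group was 2 arrays of microdissected distal matrix, the part towards the nail bed, and the proximal group was 2 arrays of microdissected proximal matrix, the part deeper under the nail fold. All were intact tissue from mice aged 8 weeks, with no treatment named in the labels, which give no strain and do not say whether the replicates came from separate animals or from pools. Total RNA of each piece was hybridised to an Affymetrix expression array, and the comparison asks how the 2 regions differ.

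A cell copies its genome only at origins that were licensed beforehand. In licensing, CDT1 helps to load rings of the MCM2 to MCM7 proteins, the replicative helicase, onto DNA in G1. Cyclin E with its kinase then drives entry into S phase, ribonucleotide reductase supplies the deoxynucleotides, and BUB1 acts later, at the kinetochores, in the checkpoint that holds mitosis until chromosomes are attached. Many of these genes are transcribed in waves, with E2F factors acting on genes of the G1/S transition and the cell cycle homology region (CHR) used by genes that peak later.

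Because these genes are textbook targets of such waves, their promoters were searched for those elements. The sequences are from RefSeq (build GRCm38.p6), run 5′ to 3′ on the strand of the gene and cover 250 bases before and 50 after the annotated start. All 6 genes were matched by gene identifier. Capitals mark the E2F letters (TTTCCCGC, TTTGGCGC, TTTCGCGC or TTTGCCGC) and the CHR letters (TTTGAA or TTCGAA), searched on both strands. The promoters of Cdt1 (chr8:122567765-122568064, plus strand), Mcm7 (the first of its 2 annotated starts, chr5:138171834-138172133, minus strand), Bub1 (chr2:127831810-127832109, minus strand) and Mcm2 (chr6:88898731-88899030, minus strand) are shown, because each holds at least 1 match.
Cdt1: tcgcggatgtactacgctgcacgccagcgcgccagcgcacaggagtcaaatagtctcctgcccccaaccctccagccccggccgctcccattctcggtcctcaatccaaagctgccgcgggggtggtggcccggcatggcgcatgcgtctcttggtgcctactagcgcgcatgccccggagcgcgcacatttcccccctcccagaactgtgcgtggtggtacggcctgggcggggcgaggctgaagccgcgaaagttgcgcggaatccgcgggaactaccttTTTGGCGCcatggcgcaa
Mcm7: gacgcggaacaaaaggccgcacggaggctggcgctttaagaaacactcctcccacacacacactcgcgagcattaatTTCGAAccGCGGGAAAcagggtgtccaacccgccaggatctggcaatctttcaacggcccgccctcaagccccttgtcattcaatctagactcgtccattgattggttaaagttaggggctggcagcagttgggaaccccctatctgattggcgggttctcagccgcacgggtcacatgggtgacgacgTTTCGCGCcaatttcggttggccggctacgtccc
Bub1: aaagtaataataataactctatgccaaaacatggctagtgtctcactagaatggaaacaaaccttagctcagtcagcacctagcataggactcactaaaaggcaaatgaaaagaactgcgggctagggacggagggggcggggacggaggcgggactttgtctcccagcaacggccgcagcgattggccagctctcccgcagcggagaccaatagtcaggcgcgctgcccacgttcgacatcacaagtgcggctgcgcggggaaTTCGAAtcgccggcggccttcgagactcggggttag
Mcm2: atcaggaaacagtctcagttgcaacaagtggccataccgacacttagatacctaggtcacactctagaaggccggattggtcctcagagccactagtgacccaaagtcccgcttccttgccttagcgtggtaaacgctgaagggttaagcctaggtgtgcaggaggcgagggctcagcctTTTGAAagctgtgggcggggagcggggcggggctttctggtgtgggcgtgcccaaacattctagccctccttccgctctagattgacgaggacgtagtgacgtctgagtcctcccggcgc

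The E2F letters were found in the promoters of 2 of the 6 genes, against 2.26% of 32817 mouse promoters of the same length. The 6 are counted by gene, with 2 promoters searched for Mcm7, and the background by promoter. The GC content was 66.7% in Cdt1 and 57.3% in the first Mcm7 promoter, against a median of 52.7% over all promoters. Among the 6 genes it ran from 47.0% (Rrm1) to 76.0% (Ccne1). The shares given here take no account of GC content. In Cdt1 the match covered bases 33 to 40, counted from the first transcribed base as 1. The first Mcm7 promoter held 2 matches, 1 on the minus strand of the promoter at -165 to -158 and 1 on its plus strand at 17 to 24. The CHR letters were found in 3 of the 6 genes, against 19.2% of all promoters: in Mcm2 at -70 to -65, in Mcm7 at -173 to -168 and in Bub1 at 15 to 20. CCAAT, an element that often stands beside the CHR, was found in 4 of the 6 (Mcm2, Mcm7, Rrm1 and Bub1), against 37.4% of all promoters, and the Mcm7 match at 24 to 28 shares 1 base with an E2F match. Neither the E2F nor the CHR letters occurred in the windows of Rrm1 and Ccne1. The CHR matches fell on both sides of the comparison, since Mcm2 had the higher intensities in the distal and Mcm7 and Bub1 in the proximal matrix. Both genes with E2F letters, Cdt1 and Mcm7, had the higher intensities in the proximal matrix, as did 68.3% of all listed genes. From 2 genes nothing is read. A match of letters is not evidence that a factor binds there.

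Cdt1, the licensing factor, had the largest mean difference between regions among the 6 genes, carried by 1 array, and also the widest gap between replicates. Its probe set (1424143_a_at, gene 67177) had intensities of 399 and 119 on the distal arrays, against 665 and 4553 on the proximal arrays. The regions did not overlap, and a single array, proximal replicate 2, stood far above the other 3. The lower proximal array was 1.67-fold above the higher distal array, a narrower gap than for Bub1 (2.03-fold) and Rrm1 (1.71-fold), and the higher proximal array 38.4-fold above the lower distal array. The mean over the arrays gave a 7.99-fold higher intensity in the proximal matrix, a log2 difference (distal minus proximal) of -3.00 ± 0.60 (SE, n = 2 arrays per region). This SE, like the others here, is moderated: limma draws each variance towards that of probe sets of like intensity. It understates the spread of Cdt1 itself, whose replicates had a pooled log2 SD of 1.64. With 2 arrays per region, that SD equals the SE without moderation.

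The size of the Cdt1 difference moved most with the proximal arrays. Without proximal replicate 2 the log2 difference was -1.61, or 3.05-fold, smaller than that of Bub1 without the same array (-2.65), and without proximal replicate 1 it was -4.39, or 20.9-fold. Leaving out distal replicate 1 or 2 gave -3.87 and -2.12. The distal replicates lay 3.36-fold apart, more than 94.9% of 2001 probe sets of like mean intensity, and the proximal replicates 6.85-fold apart, more than 99.9% of them. The median gap in those probe sets was 1.45-fold for the distal and 1.25-fold for the proximal arrays. In the authors' deposited table Cdt1 is 13.9-fold higher in the proximal matrix, the third largest fold among the 1435 listed probe sets for genes.

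**Figure D1:**
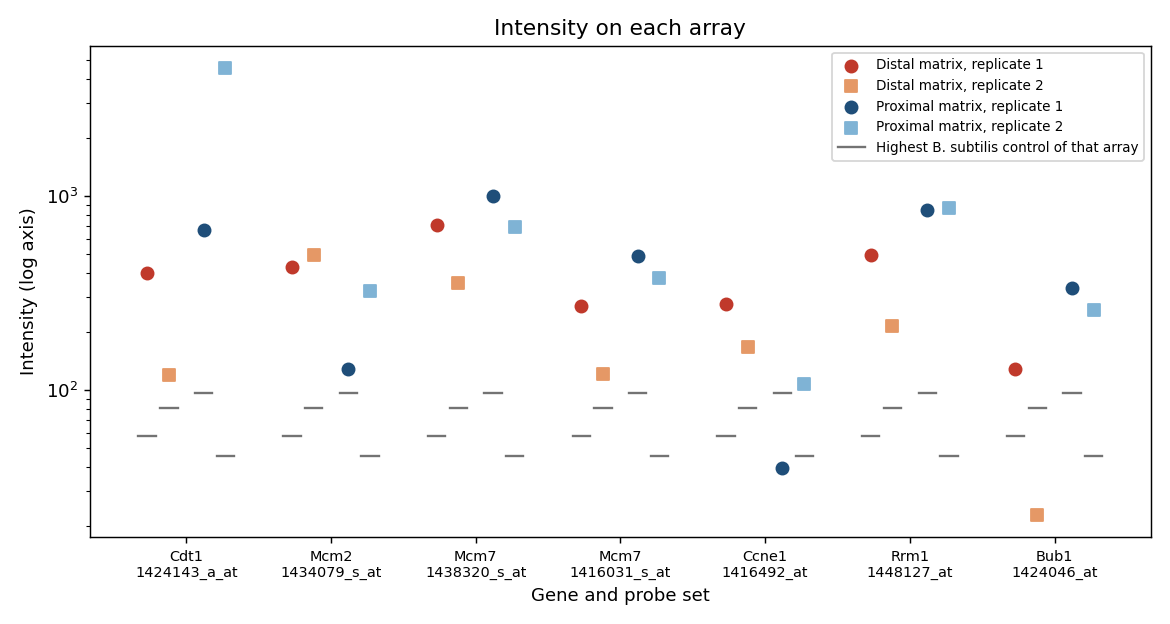
Intensity (log axis) of the 7 probe sets of the 6 genes, 1 point per array, with the 2 distal arrays to the left of the 2 proximal arrays; grey ticks mark each array's background level, its brightest Bacillus subtilis control. Cdt1 reaches 4553 on proximal replicate 2 alone, and Ccne1 on proximal replicate 1 and Bub1 on distal replicate 2 fall below their ticks.

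Mcm2 and Mcm7 encode subunits of the same helicase ring, and the intensities of their listed probe sets lay in opposite directions. Mcm2 (1434079_s_at, gene 17216) had 428 and 498 on the distal arrays, against 128 and 324 on the proximal arrays. Both distal arrays were above both proximal arrays, the nearest pair by 1.32-fold. The log2 difference was 1.18 ± 0.55 (SE, n = 2 arrays per region), 2.27-fold higher in the distal matrix. It rested largely on proximal replicate 1, without which it was 0.51 (1.42-fold), and it was 1.85 (3.61-fold) without proximal replicate 2. The distal replicates were close to each other, at 1.16-fold, and the proximal ones were 2.54-fold apart.

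The brighter Mcm7 probe set (1438320_s_at, gene 17220) had 713 and 355 on the distal arrays, against 999.7 and 692 on the proximal arrays. These overlapped, because distal replicate 1 was above proximal replicate 2. The other Mcm7 probe set (1416031_s_at) had 271 and 121 on the distal arrays, against 493 and 380 on the proximal arrays, with no overlap. Both probe sets placed the 4 arrays in nearly the same pattern, with distal replicate 2 lowest and proximal replicate 1 highest, and differed in the order of the middle pair. The log2 differences were -0.73 ± 0.43 for the brighter and -1.26 ± 0.57 for the other (SE, n = 2 arrays per region), that is, 1.65-fold and 2.39-fold higher intensity in the proximal matrix.

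The Mcm7 difference was smallest without distal replicate 2. Then the log2 difference was -0.22 for the brighter probe set (1.17-fold) and -0.67 for the other (1.59-fold). Without distal replicate 1 they were -1.23 and -1.84. The suffix of the Mcm2 and of both Mcm7 probe sets (_s_at) is Affymetrix's mark for probes that may read transcripts of more than one gene, and that of Cdt1 (_a_at) marks transcripts of one gene.

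Ccne1 encodes cyclin E1, which activates the kinase CDK2 at the start of S phase, and its intensities were higher in the distal matrix. Its probe set (1416492_at, gene 12447) had 278 and 166 on the distal arrays, against 39.8 and 108 on the proximal arrays. The regions did not overlap, and the nearest pair of arrays was 1.54-fold apart. The 39.8 of proximal replicate 1 was under the background level of that array, 96.8, which was taken as the brightest of 27 control probe sets that read Bacillus subtilis transcripts and that mouse RNA should not bind. The log2 difference was 1.71 ± 0.82 (SE, n = 2 arrays per region), with the value below background taken as measured. With that value raised to the background level the fold is a bound, at least 2.10-fold higher in the distal matrix. Without proximal replicate 1 the log2 difference was 0.99 (1.99-fold), and without proximal replicate 2 only the array below background is left for the proximal matrix, against which the distal arrays were at least 2.22-fold higher.

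Rrm1, the gene of the large subunit of ribonucleotide reductase, had the tightest proximal replicates. Its probe set (1448127_at, gene 20133) had 494 and 214 on the distal arrays, against 845 and 869 on the proximal arrays. The proximal replicates were 1.03-fold apart, closer than in all but 6.35% of probe sets of like intensity. The regions did not overlap, and the lower proximal array was 1.71-fold above the higher distal array. The log2 difference was -1.40 ± 0.46 (SE, n = 2 arrays per region), 2.64-fold higher in the proximal matrix. The distal arrays decided its size, with -2.00 (4.01-fold) without distal replicate 1 and -0.79 (1.73-fold) without distal replicate 2, while leaving out either proximal array gave -1.42 and -1.38.

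Bub1, the mitotic checkpoint kinase gene, had 128 and 22.7 on the distal arrays, against 337 and 260 on the proximal arrays (1424046_at, gene 12235). Both proximal arrays were above both distal arrays, the nearest pair by 2.03-fold. The 22.7 of distal replicate 2 was under the background level of its array, 81.0. The log2 difference was -2.46 ± 0.84 (SE, n = 2 arrays per region), with that value taken as measured. With it raised to the background level the fold is a bound, at least 2.90-fold higher in the proximal matrix. Without distal replicate 2 the log2 difference was -1.21 (2.31-fold), and without distal replicate 1 only the array below background is left for the distal matrix, against which the proximal arrays were at least 3.65-fold higher. The authors' deposited table gives Bub1 as 3.37-fold higher in the proximal matrix, Rrm1 as 3.10-fold, and the brighter Mcm7 probe set as 2.24-fold.

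**Figure D2:**
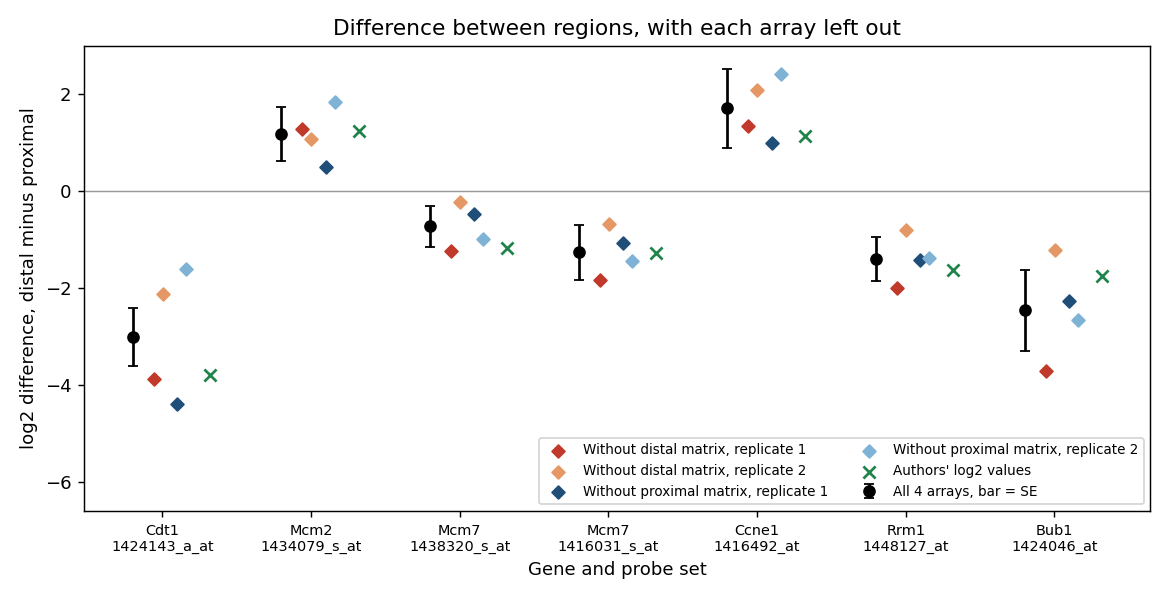
The log2 difference, distal minus proximal, of the 7 probe sets (vertical axis; black point, all 4 arrays with SE; diamonds, 1 array left out each; crosses, the authors' log2 values). The Cdt1 diamonds span -4.39 to -1.61, and the diamonds of Bub1 without distal replicate 1 and of Ccne1 without proximal replicate 2 rest on a value below background.

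Taking the 7 probe sets together, 2 had higher intensities in the distal and 5 in the proximal matrix. Of all listed probe sets, 70.7% were higher in the proximal matrix, and of all 45037 measured, 52.0%. The regions did not overlap for 6 of the 7, against 34.7% of all probe sets and 74.1% of the listed ones. In the limma fit over all probe sets (Benjamini-Hochberg adjusted p under 0.05), 1 of the 7 was called, Cdt1 as higher in the proximal matrix, and the fit called 0.0666% of all probe sets, 0.0133% as higher in the proximal matrix. Since the list was chosen on this contrast, nothing is read from these counts. The Cdt1 call ended without proximal replicate 2 and under quantile normalization, median centring, log2 of the intensity plus 16, the brighter probe sets alone and a fit without a variance trend. In each fit with an array left out 1 region is a single array, and a probe set's own spread comes from the other pair alone. The number of the 7 called in such fits is therefore not given.

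All 5 probe sets with higher proximal intensities had their lowest value on distal replicate 2, and its distance from distal replicate 1 was 2.01-fold to 5.64-fold. Over all probe sets distal replicate 1 was the higher of the pair in 48.5%, and over the listed probe sets with higher proximal intensities in 54.0%. Ccne1 also had the lower of its distal values on distal replicate 2, so that 6 of the 7 did, and Mcm2 alone had the higher one there. These counts hold Mcm7 by 2 probe sets of nearly the same pattern. The genes were listed for their fold on these same arrays, so nothing is read from the counts. The proximal replicates had no such common order: Cdt1, Mcm2, Ccne1 and Rrm1 were higher on proximal replicate 2, and both Mcm7 probe sets and Bub1 on proximal replicate 1. The plot of replicate gaps shows that 5 of the 7 had distal replicates farther apart than the median of probe sets of like intensity, and 4 of the 7 proximal replicates.

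**Figure D3:**
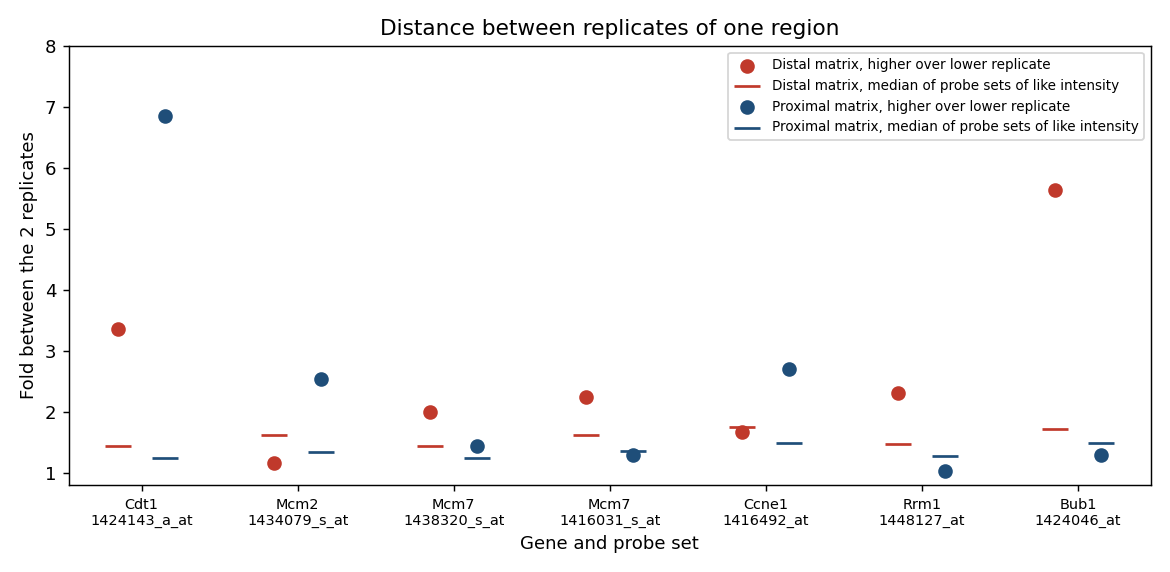
Fold between the 2 replicates of a region (vertical axis, linear) for each probe set, distal (red) to the left of proximal (blue); dots are the probe set and dashes the median of 2001 probe sets of like mean intensity. The proximal gap of Cdt1 (6.85-fold) and the distal gap of Bub1 (5.64-fold) stand far above their dashes, and the proximal gap of Rrm1 (1.03-fold) lies below its own.

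The likeness of the 6 genes to each other was measured as the root mean square difference, over the 4 arrays, between log2 intensities centred on each gene's own mean. Rrm1 and the brighter Mcm7 probe set were the closest pair at 0.40, followed by Mcm2 and Ccne1 at 0.43 and by Rrm1 and Bub1 at 0.71. Cdt1 was no closer than 1.18 to any of the other 5. Each of the 6 had other listed genes closer to it, out of 1132 compared. For Rrm1 these were Ints7 (0.07), a subunit of the Integrator complex, and Tnpo3 (0.07), a nuclear import receptor, and for Mcm7 E430028B21Rik (now Pde12, 0.07) and Ythdc1 (0.07), a reader of methylated RNA. For Bub1 they were Kank2 (0.14) and Eaf1 (0.15), and for Mcm2 Asxl1 (0.16) and Nebl (0.16). For Ccne1 they were Ccnl2 (0.19) and Serpinb7 (0.20), and for Cdt1 Ftsjd1 (now Cmtr2, 0.51) and Zfp810 (0.54). Ftsjd1 and Zfp810 were below background on both distal arrays and on proximal replicate 1. Ints7, Tnpo3, Kank2 and Eaf1 were below it on distal replicate 2, and Asxl1, Nebl, Ccnl2 and Serpinb7 on proximal replicate 1. The distances take such values as measured. With 4 arrays and a list chosen for a difference between regions, many genes share such a pattern, and the distances are a description only.

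Beyond the 6, lists of cell cycle genes by role held 267 symbols, older names included, of which 30 genes were in the authors' list. Of these 30, 10 had higher intensities in the distal and 20 in the proximal matrix, with a median log2 difference of -0.92. Of all 1133 listed genes, 359 were higher in the distal and 774 (68.3%) in the proximal matrix, with a median of -0.94. In the limma fit 1 of the 30 was called, Cdt1, and of the 24 besides the 6 genes 0 were called. Of all 1133 listed genes the fit called 15 as higher in the distal and 4 as higher in the proximal matrix. Of all probe sets it called 0.0666%, and nothing is read from these counts. Leaving out 1 array moved the fold of 12 of these 24 by over 1.5 times and turned the sign of 3, Gins4, Dck and Cenpn. Of the 30, 8 had at least 1 array not above background: Gins4, Rfc1, Ccne1, E2f8, Mycn, Bub1, Cenpn and Trp53. With such values raised to the background level of their array the counts were again 10 and 20, with a median of -0.92.

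In the licensing group 4 of 5 were higher in the proximal matrix. Besides Cdt1 and Mcm7 these were Dbf4, the activator of the kinase CDC7 that fires licensed origins, and Topbp1, a scaffold needed for origin firing. Dbf4 had 165 and 191 on the distal arrays, against 298 and 407 on the proximal arrays (log2 difference -0.97), and Topbp1 had 411 and 267 on the distal arrays, against 525 and 702 on the proximal arrays (-0.87). Neither overlapped between regions. At the replication fork the 4 listed genes were split. Rfc1, of the clamp loader, and Rpa3, of the protein that coats single-stranded DNA, were higher in the distal matrix (1.84 and 1.10; Rfc1 had 33.6 on proximal replicate 1, below background, and 1.08 with it raised), and Pole3, of DNA polymerase epsilon, and Gins4, of the active helicase, in the proximal matrix (-1.50 and -0.72). The sign of Gins4 turned without distal replicate 2 (0.44), and its regions overlapped.

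For nucleotide supply, Shmt1, of one-carbon metabolism, had a log2 difference of -1.14, and Dck, the deoxycytidine kinase gene, one of 0.02 with overlapping regions, while the authors' deposited table has Dck 2.02-fold higher in the proximal matrix. Of the cyclins Ccnd2, which acts in G1, stood opposite to Ccne1, with 159 and 345 on the distal arrays, against 447 and 404 on the proximal arrays. Its log2 difference was -0.86, and -0.30 without distal replicate 1.

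Among the regulators, Cdkn2b, which encodes the CDK4 and CDK6 inhibitor p15, had 363 and 488 on the distal arrays, against 146 and 91.7 on the proximal arrays (log2 difference 1.86 ± 0.61, SE, n = 2 arrays per region). The 3 transcription factor genes of that list lay the other way. E2f8, an atypical E2F that represses transcription, had 18.0 and 6.6 on the distal arrays, against 276 and 166 on the proximal arrays, and Mycn had 21.5 and 47.0 on the distal arrays, against 269 and 244 on the proximal arrays. Neither was above the background level on either distal array, so their folds are bounds, at least 3.12-fold for E2f8 and at least 3.74-fold for Mycn, against the higher of that level and the gene's own value on each distal array. Myb had a log2 difference of -1.28. The median of the list was -2.14, and -1.46 with E2f8 and Mycn at their bounds.

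Of the 8 listed genes of mitosis 4 had the higher mean in the distal and 4 in the proximal matrix, with Cenpn among the first 4 on a single array above background. In the proximal direction, besides Bub1, were Pttg1 (-1.34), Smc2 (of condensin, -1.27) and Anapc5 (of the anaphase-promoting complex, -0.62). Pttg1 encodes securin, which holds back the separation of sister chromatids. In the distal direction were Cenpp (1.46, and 0.60 without distal replicate 1), Plk4, the kinase that starts centriole copying (1.26), and Cenpb (1.08, with overlapping regions, and 0.25 without distal replicate 2). Cenpn had 347 and 2.0 on the distal arrays, against 26.0 and 7.9 on the proximal arrays. Its last 3 values were below background, so without distal replicate 1 no difference can be read, nor the turn of its sign counted above. Of the 4 listed genes of the DNA damage response all were higher in the proximal matrix: Trp53 (-2.79 with a value of 8.7 on distal replicate 2, below background, -1.18 with it raised, and -0.77 without that array), its target and antagonist Mdm2 (-2.25 ± 0.52, SE, n = 2 arrays per region), the arrest gene Gadd45a (-1.38) and, by its brighter probe set, the kinase gene Atm (-1.25). The other Atm probe set pointed the other way, at 0.37.

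**Figure D4:**
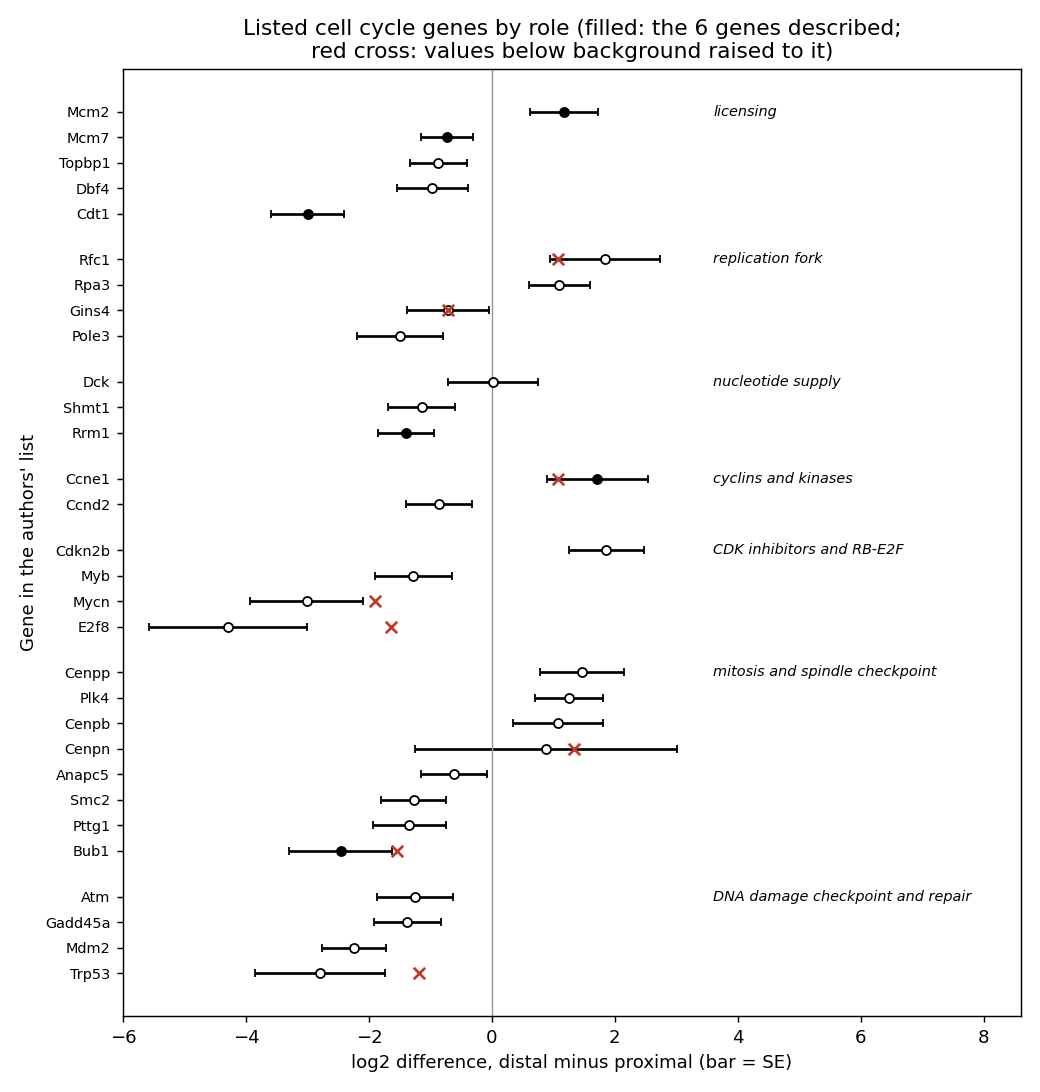
The log2 difference, distal minus proximal (horizontal axis, bar = SE), of the 30 listed cell cycle genes grouped by role, with the 6 genes filled; red crosses mark, for the 8 genes with an array not above background, the difference with such values raised to that level. The crosses of E2f8 (-1.64), Mycn (-1.90) and Bub1 (-1.54) lie nearer to 0 than the point of Cdt1 (-3.00).

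In bulk tissue, fewer cells of a type and less RNA per cell cannot be told apart. Beside the genes with higher proximal intensities, Dcn, the 1 of 10 fibroblast markers that was on the list, had 243 and 310 on the distal arrays, against 984 and 1049 on the proximal arrays. Itga8, the 1 of 10 endothelial and mural markers listed, had 9.6 and 41.3 on the distal arrays, against 344 and 508 on the proximal arrays. Both distal values were below background, so its fold is a bound, at least 6.10-fold higher in the proximal matrix. Of the immune markers, 0 of 11 were listed. Their part in the differences was not tested. As for the tissue, 11 of 25 markers of keratinocytes and nail matrix were listed, 7 of them above background on all 4 arrays. Of these 11, 2 (Krt1 and Krt42) were higher in the distal and 9, among them Krt15 and Hoxc13, in the proximal matrix, with a median log2 difference of -1.65. Krt6b and Itgb4, among the 9, overlapped between regions. The sign of Krt6b turned without distal replicate 2 (0.20) and without proximal replicate 2 (0.65). Of all 1133 listed genes 68.3% were higher in the proximal matrix, with a median of -0.94, so nothing is read from the direction of these markers. Their part in the differences was not tested. The 3′ to 5′ ratio of the Gapdh control, a sign of RNA length, was 9.40 and 6.73 on the distal arrays, against 7.73 and 8.15 on the proximal arrays. The 3′ end thus gave by far the stronger signal on all 4 arrays, and least so on distal replicate 2. The part of this ratio in the low values there was not tested.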

How the data were processed

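Total RNA of 2 distal and 2 proximal matrix samples was isolated (Trizol) and labelled by a kit that copies RNA from its 3′ end, per the labels' protocols. The deposited value table holds intensity per probe set on a linear scale, which the authors had scaled in a way not stated in the labels or headers; its mean over all probe sets, trimmed at each end, was 150.0 on every array. The authors' deposited list comes from a fold change analysis on Affymetrix Mouse430_2 arrays, per the file headers, and gives an unsigned fold with its direction and the log2 value of each region; the summary behind these is not stated there. 0 columns were left without a sample or comparison.

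Log2 was taken with a floor of 1 on the intensities. Without the 64 controls, 45037 probe sets were fitted with limma 3.58.1 in R 4.3.3 (lmFit, eBayes with an intensity trend, two-sided, Benjamini-Hochberg threshold 0.05), which was tested on simulated data. Standard errors are from that fit and are moderated, drawn towards the spread of probe sets of like intensity. The pooled SD of a probe set's own replicates, with 2 arrays per region equal to the SE without moderation, was mostly larger. It was 1.64 for Cdt1 (SE 0.60), 0.68 for Mcm2 (0.55), 0.57 and 0.61 for Mcm7 (0.43 and 0.57), 0.60 for Rrm1 (0.46) and 1.26 for Bub1 (0.84). For Ccne1 it was 0.81 (0.82). Neither measure reaches beyond these samples, as the replicates are not stated to be separate animals. Median intensities ran from 41.6 to 55.7. The number of arrays limits the precision.

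Gene names come from the authors' list. Where a gene had several listed probe sets, the one of highest mean intensity stood for it. All listed probe sets of the 6 genes are described; of the other genes in each role list up to 3 per direction are named by size of difference, and Cenpn and Atm, outside that rule, were named after their values were seen. Likeness was to name the 2 nearest listed genes for each of the 6. The 6 genes and the lists were chosen with earlier results of these data known. The background level, the brightest Bacillus subtilis control, and the raising of dimmer values to it were chosen after the values were seen. Alternatives were other scalings, the brighter probe sets, an offset of 16, no variance trend, a fold rule, a block for the replicate number, leave-one-out fits and the authors' own log2 values.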

Additional observations from a re-analysis of the deposited data

How the results depend on the processing

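The proximal matrix had the higher intensity for 5 of the 7 probe sets under each alternative (4 of 6 counted as genes by the mean over their probe sets). This is no measure of stability: a block or a filter on dim probe sets cannot move a difference between means, leaving out an array cannot turn one where the regions do not overlap, and the authors' own log2 values chose the genes. Raising values below background to that level, an alternative chosen after seeing the data, gave 1.07 for Ccne1 and -1.54 for Bub1. Over the 3 other scalings (hybridization controls, array medians, quantiles) the log2 differences ran from -3.51 to -2.96 for Cdt1, 0.67 to 1.29 for Mcm2, -1.24 to -0.68 and -1.77 to -1.20 for the Mcm7 probe sets, 1.20 to 1.88 for Ccne1, -1.91 to -1.36 for Rrm1 and -2.97 to -2.33 for Bub1. Scaling to the 18 hybridization controls moved the median of all probe sets to -0.57, against -0.06 as deposited.

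The number of probe sets that limma called, 30 (24 higher in distal, 6 in proximal), depended on the setting. It was 9 (6 and 3) under quantile normalization, 8 (6 and 2) under median centring and 12 (3 and 9) under hybridization control scaling. With log2 of the intensity plus 16 it was 17 (15 and 2), among the brighter probe sets 2 (2 and 0), and without a variance trend 0. An unadjusted limma p under 0.05 went to 3010 of 45037 probe sets without the trend and to 2294 with it. With no difference at all a share of 0.05 would be expected, so nothing is read from either count. A log2 difference of at least 1 with no overlap, without a test, took 11118 of 45037 probe sets (5073 and 6045). These held 6 of the 7. The 7 were listed for their fold on these same arrays, so nothing is read from that count. Leaving out an array gave 4 to 899, with 899 (306 and 593) without distal replicate 1, 635 (233 and 402) without distal replicate 2, and 4 and 7 without proximal replicate 1 and 2. With the replicate number as a block the fit called 90 (53 and 37), Cdt1 among them; the deviations of same-numbered arrays from their region means had a correlation of -0.007 across probe sets, so the numbers were not taken to pair the arrays. The cause of these changes was not tested. Dim signal limits Ccne1 and Bub1, each below background on 1 array.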

Other observations

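The authors' list carries annotation terms, which give a wider view of cell cycle genes than the role lists; these terms were chosen after the values were seen, and the terms of 21 listed probe sets were not used here. Of 13 listed genes annotated with DNA replication, 3 had higher intensities in the distal and 10 in the proximal matrix, with a median log2 difference of -0.97. Of 39 annotated with cell cycle, 12 were higher in the distal and 27 in the proximal matrix (median -0.86), of 13 with mitosis, 5 and 8 (median -1.17), and of 20 with cell division, 7 and 13 (median -0.72). Over all 1133 listed genes the counts were 359 and 774, with a median of -0.94. Without the 6 genes described above, the medians were -0.97 for DNA replication, -0.89 for cell cycle, -0.90 for mitosis and -0.72 for cell division.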
